A study of Mus musculus with 75 samples.

Results

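The genes described here make cholesterol or are targets and regulators of SREBP, the transcription factors that set the cell's sterol supply. They were taken as a fixed list of gene symbols: 29 of the 41388 mouse gene identifiers in each count table, all of them present in both. The list holds 18 enzymes of the path from acetyl-CoA to cholesterol, 6 genes that sense or move sterols and 5 genes of fatty acid supply. All 29 passed the filter on low counts in every fit, and the lowest count of any of them in a single library was 11 reads.

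The RNA-seq study measured mouse blood stem and progenitor populations with and without Kmt2c, which encodes a histone methyltransferase. The first experiment holds 48 libraries from untreated mice aged 8 weeks: the populations labelled HSC (haematopoietic stem cells), HPC, pGM (pre-granulocyte-monocyte) and GMP, each as wild type (wt), Kmt2c f/+; Vav-Cre (het) and Kmt2c f/f; Vav-Cre (ko), with 4 libraries per group. The second experiment holds 27 libraries of HSC and HPC, wt or ko, taken at the same age after 3 days of PBS or of IL-1 at 0.5 µg per mouse. Each HSC group there holds 4 libraries (3 for wt with IL-1) and each HPC group holds 3. The HSC libraries of that experiment carry HPCs as their cell type entry, against HSC in title, source and description; they are treated as HSC here. Vav-Cre drives recombination in blood cells. The wt mice carry no Cre in their labels, so between ko and wt the loss of Kmt2c and the presence of Cre cannot be told apart; het and ko, compared in the first experiment, both carry Vav-Cre. The labels do not say whether replicates came from separate animals, so p-values measure the spread between libraries, part of which may be technical.

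Cells make cholesterol from acetyl-CoA through mevalonate, farnesyl diphosphate, squalene and lanosterol. When membrane sterol is low, Scap carries the SREBP proteins, encoded by Srebf1 and Srebf2, to the Golgi, where they are cut and released to switch on nearly every enzyme of the path. When sterol is plentiful, the Insig proteins hold Scap back in the endoplasmic reticulum. Dividing cells need sterol for new membrane, and in mice blood progenitors that cannot export cholesterol are known to expand.

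Library totals were 13.3 to 20.8 M reads in the first experiment (median 16 M) and 18.6 to 42.8 M reads in the second (median 32.7 M). The targeted gene was checked first: Kmt2c was at 2.96 to 18.3 CPM (counts per M reads of the library, after scaling) in ko libraries, 11.3 to 41.7 CPM in het libraries and 13.9 to 58.9 CPM in wt libraries of the first experiment. In the second, it was at 12.6 to 25.2 CPM in ko and 13.9 to 72.3 CPM in wt libraries. In 7 of 8 strata of population and treatment no ko library reached the lowest wt library. The exception was HSC with IL-1, where the library labelled wt replicate 1 had 13.9 CPM against 41.2 and 42.3 CPM in the other two. Libraries of 2 GMP groups (het replicate 1 and ko replicate 2) and replicate 4 of 3 HSC groups of the second experiment (wt PBS, ko PBS and ko IL-1) stood apart from their replicates over all genes, as did replicate 1 of wt and of ko HPC with IL-1. Of the sort markers, wt HSC had 29.4 to 42.3 CPM of Slamf1 against at most 3.47 CPM in wt HPC, and wt HPC had 345 to 487 CPM of Cd48 against at most 20.6 CPM in wt HSC. The 3 marker genes of B cells, summed, reached 9.42 to 25.4 CPM in wt HPC against at most 4.16 CPM in wt HSC, and 43.9 to 176 CPM against at most 1.7 CPM under PBS. Summed markers of mature neutrophils were at 11.9 to 1165 CPM in untreated wt HSC and 14.5 to 332 CPM in wt HPC. Erythroid markers were at 6.93 to 313 CPM and 11.9 to 90.6 CPM in the same groups. In HSC with PBS, macrophage markers were at 26.6 to 43.5 CPM in wt and 5.15 to 12.4 CPM in ko, with no overlap. The part of these markers in the results was not tested.

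The promoters of these genes are shown first, because SREBP acts there. RefSeq entries (GRCm38.p6, 250 bases before to 50 after each start) were matched by symbol for 23 of the 29 genes. The sterol response motif TCACNCCAC, searched on both strands, was in 1 of the 23, Hmgcs1 (4.348%), against 1.436% of the 27025 genes with an entry. The SREBP-binding E-box CACGTG was in 5 (21.74%) against 8.093%. CCAAT, the box of the partner factor NF-Y, was in 19 (82.61%) against 41.06%. Among the 10897 genes with an entry that were tested in the first experiment, these background shares were 1.404%, 11.55% and 42.46%. The Hmgcs1 promoter is printed as the one with the sterol motif. Ebp, Insig1 and Fads2 are printed, after their values were seen, as the genes with the smallest p-values between wt HSC and HPC that have an entry. Each line gives the 250 bases before the start in the direction of transcription, with motif matches in capitals (TCACCCCAC, CACGTG, and ATTGG, which is CCAAT read on the other strand). A match is a description of letters only.
Hmgcs1 (chr13:119690101-119690350, plus strand): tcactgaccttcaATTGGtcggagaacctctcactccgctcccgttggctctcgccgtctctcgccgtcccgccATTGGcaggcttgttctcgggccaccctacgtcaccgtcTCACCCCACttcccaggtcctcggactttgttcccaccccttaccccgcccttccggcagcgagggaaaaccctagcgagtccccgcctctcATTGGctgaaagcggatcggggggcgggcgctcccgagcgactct
Ebp (chrX:8193513-8193762, minus strand): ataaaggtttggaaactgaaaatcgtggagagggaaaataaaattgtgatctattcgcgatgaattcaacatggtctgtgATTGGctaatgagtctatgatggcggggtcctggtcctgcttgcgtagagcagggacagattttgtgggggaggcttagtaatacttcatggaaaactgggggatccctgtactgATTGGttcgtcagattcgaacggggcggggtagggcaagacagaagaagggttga
Insig1 (chr5:28071162-28071411, plus strand): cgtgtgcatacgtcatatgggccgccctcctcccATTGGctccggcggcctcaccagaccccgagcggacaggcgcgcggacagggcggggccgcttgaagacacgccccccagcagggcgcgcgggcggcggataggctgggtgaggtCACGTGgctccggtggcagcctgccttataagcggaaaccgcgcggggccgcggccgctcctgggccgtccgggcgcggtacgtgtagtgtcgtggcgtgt
Fads2 (chr19:10101504-10101753, minus strand): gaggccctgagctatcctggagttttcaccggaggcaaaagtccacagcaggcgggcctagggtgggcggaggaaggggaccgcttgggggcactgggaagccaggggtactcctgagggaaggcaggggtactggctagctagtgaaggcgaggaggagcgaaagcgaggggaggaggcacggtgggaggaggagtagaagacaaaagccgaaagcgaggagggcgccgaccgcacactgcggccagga
Hmgcs1, which encodes the synthase that commits acetyl units to the mevalonate path, carries the sterol motif 137 bases before its start, between CCAAT boxes. Ebp carries only CCAAT boxes, Insig1 carries 1 CCAAT box and the E-box, and the printed stretch of Fads2 carries none of these letters.

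Levels between genes were compared per kb of exon. In wt HSC of the first experiment the highest was Scd2, a stearoyl-CoA desaturase, at 51.3 CPM per kb, followed by Ebp, the sterol isomerase late in the path, at 47.0 CPM per kb. Acat2, the thiolase that starts the path, came next at 35.3 CPM per kb, and Srebf2 stood at 18.3 CPM per kb. The lowest were Scap at 3.44 CPM per kb, the sterol reductase gene Tm7sf2 at 1.52 CPM per kb and Idi1, the isomerase of isopentenyl diphosphate, at 0.77 CPM per kb. Ebp moved to the top in wt HPC (86.3 CPM per kb) and wt GMP (133 CPM per kb). Fads2 moved from 9.76 CPM per kb in wt HSC to 0.756 CPM per kb in wt GMP.

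**Figure D1:**
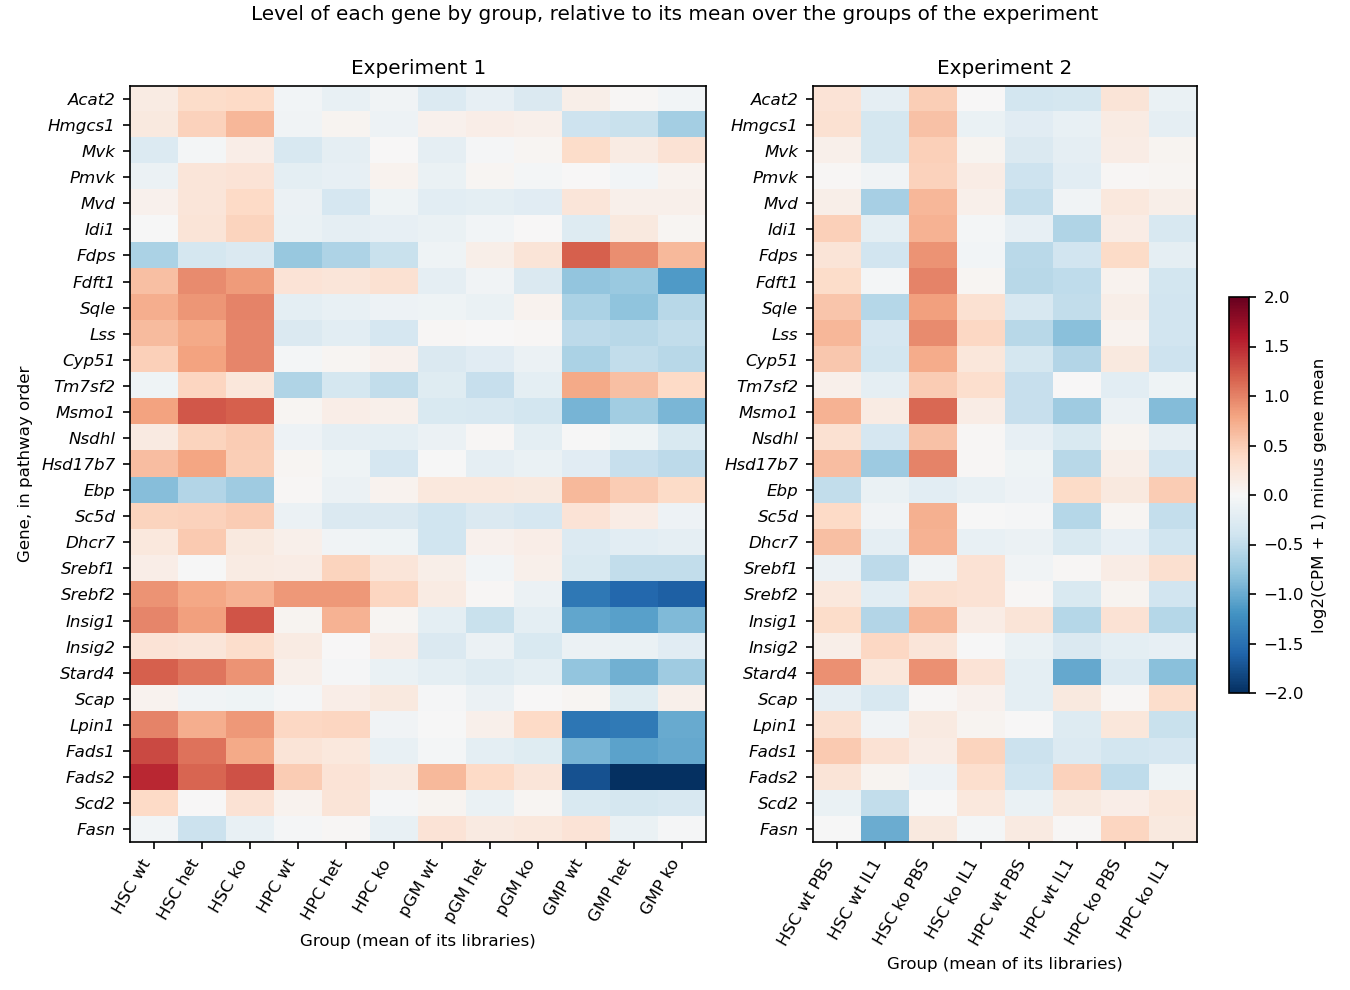
Each cell gives a gene's mean log2(CPM + 1) in a group minus its mean over the groups of that experiment (red higher, blue lower, scale ending at 2 either way; Fads2 in GMP het and ko lies beyond it). In the first experiment most genes are highest in the HSC columns, while Ebp and Fdps are highest in GMP.

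The mean log2(CPM + 1) over the 29 genes was highest in HSC and lowest in GMP. In wt it was 5.76 ± 0.08 in HSC, 5.39 ± 0.08 in HPC, 5.31 ± 0.10 in pGM and 5.08 ± 0.08 in GMP (SD, n = 4 each). The 4 wt HSC libraries lay above all wt HPC libraries, and HPC and pGM differed by less than 1 SD. By genotype it was 5.83 ± 0.21 in het and 5.88 ± 0.16 in ko HSC, and 4.98 ± 0.06 in het and 4.96 ± 0.13 in ko GMP (SD, n = 4 each). No p is given for this mean, since the genes were chosen with results of these data known. Its fall from wt pGM to GMP was not shared by most path enzymes. In that step 8 of the 18 path enzymes lay below 0, against 4 of 6 sensing and transport genes and 4 of 5 fatty acid genes.

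**Figure D2:**
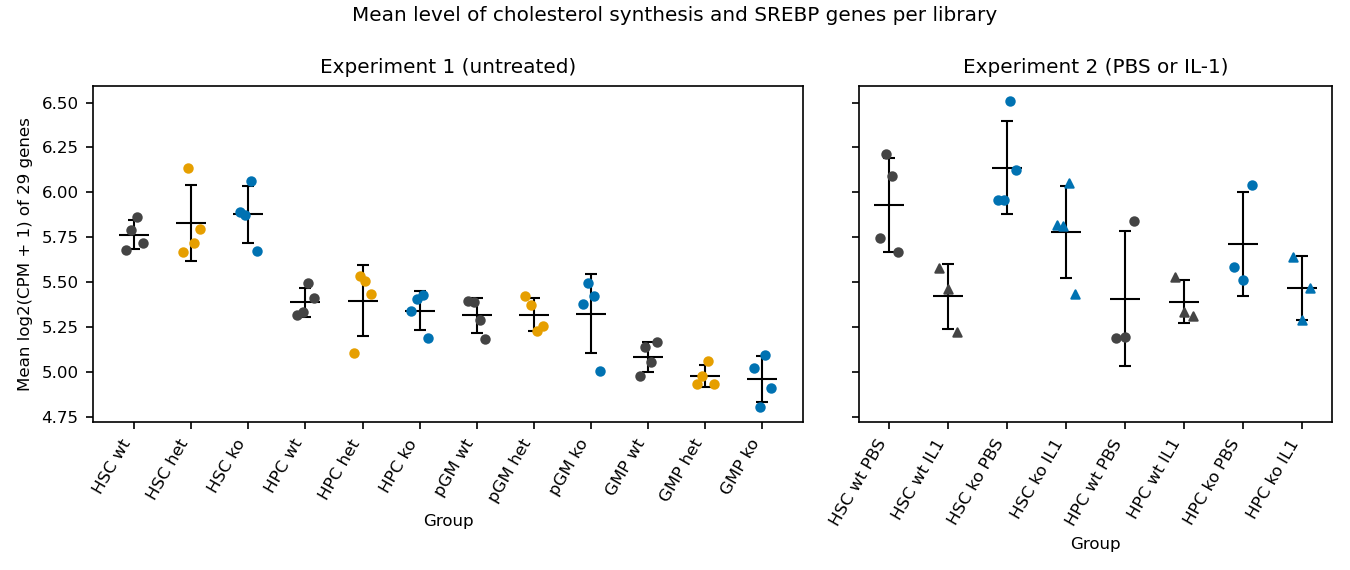
Mean log2(CPM + 1) of the 29 genes in each library (points; triangles are IL-1), by population and genotype, with the group mean ± SD as a black bar. Untreated wt HSC average 5.76 against 5.08 in wt GMP, and wt HSC average 5.93 with PBS against 5.42 with IL-1.

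Between wt HSC and wt HPC, sterol genes were mostly lower in HPC. Of the 29 genes, 8 fell (27.6%, against 10.2% of all 15110 genes tested) and 1 rose (against 12.5%). The median log2 difference of the 29 was -0.28 against -0.02 over all genes, and 26 of 29 lay below 0 against 51.8% of all genes. Bulk libraries cannot tell apart fewer cells of a type and less RNA per cell. The 12 mitosis genes listed as a comparison all rose in HPC (median log2 difference 1.54), with a summed level of 479 to 544 CPM in wt HSC and 1279 to 1570 CPM in wt HPC; what part this has in the sterol genes was not tested.

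Among the enzymes that turn squalene into sterol, Sqle, Lss, Msmo1 and Sc5d fell. Sqle, squalene epoxidase, had 97.0, 129, 147 and 114 CPM in wt HSC and 59.6, 61.1, 71.7 and 63.9 CPM in wt HPC. The groups did not overlap, and the log2 difference was -0.91 ± 0.18 (SE, edgeR adjusted p = 0.000153). Lss, lanosterol synthase, had 26.0, 45.4, 59.9 and 43.2 CPM in HSC and 17.9, 18, 31.6 and 22.8 CPM in HPC. Its groups overlapped through the lowest HSC library (log2 difference -0.94 ± 0.27, adjusted p = 0.00917), and the call was lost without wt HSC replicate 3. Msmo1, a sterol methyl oxidase, had 133, 134, 193 and 133 CPM in HSC and 82.4, 92.5, 95.4 and 77.4 CPM in HPC. All HSC libraries lay above all HPC libraries (-0.76 ± 0.22, adjusted p = 0.00756). Sc5d, the desaturase before the last step, differed by -0.55 ± 0.15 (adjusted p = 0.00736). Cyp51, lanosterol demethylase, did not pass (-0.53, adjusted p = 0.0672), nor did Hsd17b7, a sterol ketone reductase (-0.59, adjusted p = 0.0679).

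Ebp went the other way. It had 87.7, 124, 114 and 108 CPM in wt HSC and 221, 207, 179 and 190.1 CPM in wt HPC. Every HPC library lay above every HSC library, with a log2 difference of 0.89 ± 0.13 (adjusted p = 1.45e-06).

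Among the genes that sense or move sterol, Stard4 and Insig1 fell and the others were not called. Stard4, a carrier of cholesterol between membranes, had 127, 112, 110.2 and 144 CPM in wt HSC and 54.7, 47.5, 61.9 and 64.3 CPM in wt HPC. The groups were far apart (log2 difference -1.10 ± 0.15, adjusted p = 2.36e-07). Insig1 had 112, 68.5, 88.1 and 67.8 CPM in HSC and 35.7, 35.8, 47.8 and 57.3 CPM in HPC. No HPC library reached the lowest HSC library (-0.92 ± 0.21, adjusted p = 0.00108). The SREBP genes themselves lay close to 0, at -0.02 for Srebf2 (adjusted p = 0.935) and 0.02 for Srebf1 (adjusted p = 0.947), as did Scap at -0.10 and Insig2 at -0.11.

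Both desaturases of long polyunsaturated fatty acids, Fads1 and Fads2, fell. Fads1 (chr19:10182888-10196877 in GRCm38) had 109.8, 111, 90.0 and 96.8 CPM in wt HSC and 50.8, 37.0, 50.9 and 53.9 CPM in wt HPC. The groups did not overlap (log2 difference -1.07 ± 0.17, adjusted p = 2.55e-06). Fads2 had 24.6, 36.6, 34.8 and 32.6 CPM in HSC and 13.2, 15.1, 18.5 and 15.8 CPM in HPC, again with no overlap (-1.03 ± 0.26, adjusted p = 0.00308). Lpin1, a phosphatidate phosphatase, did not pass (-0.58, adjusted p = 0.0605).

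**Figure D3:**
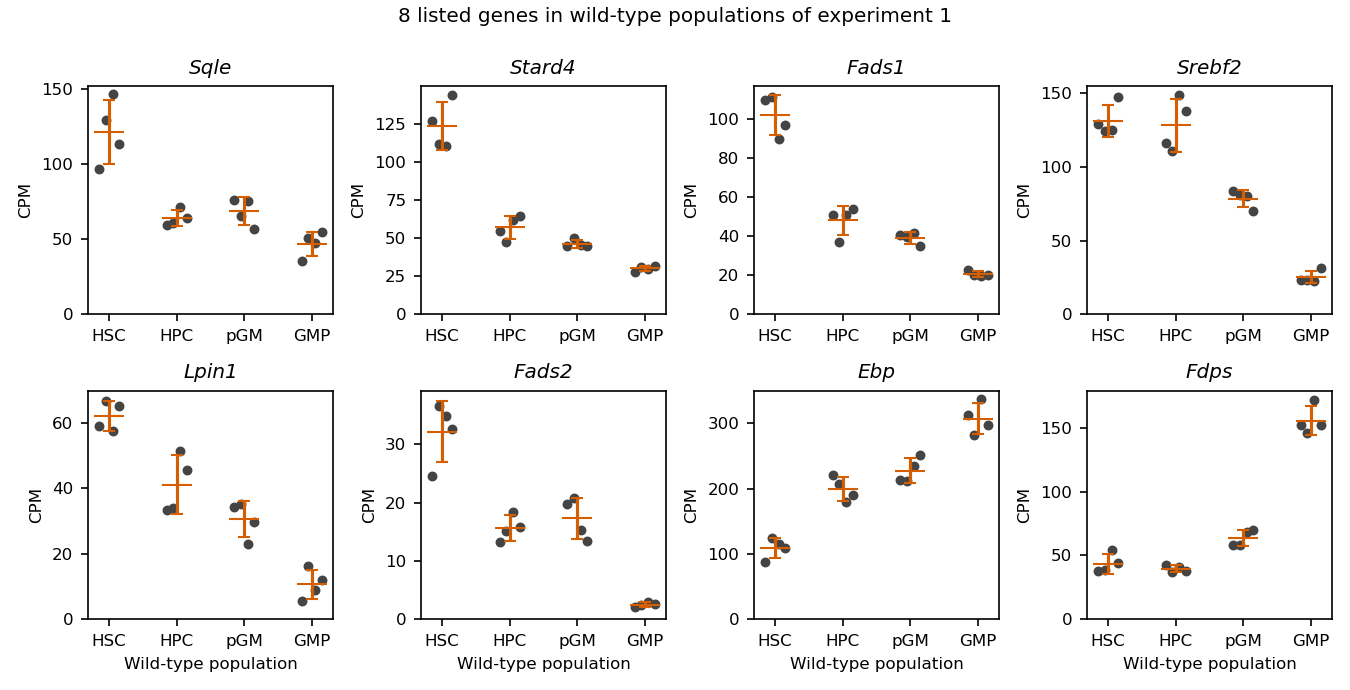
CPM of 8 genes in the wt libraries of the first experiment (points) by population, with mean ± SD in orange on linear axes that start at 0. Sqle, Stard4 and Fads1 drop between HSC and HPC, Srebf2, Lpin1 and Fads2 between pGM and GMP, while Ebp and Fdps are highest in GMP.

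The same step in the PBS libraries of the second experiment gave fewer calls in the same direction. Of the 29 genes, 4 fell (13.8%, against 7.36% of the 17511 genes tested) and 0 rose (against 6.46%; 0 rose at an unadjusted p under 0.05 with edgeR, and no other tool called a rise). The median was -0.66 against -0.02 over all genes, and 26 of 29 lay below 0 against 51.2% of all genes. The count depended on single libraries: it was 2 without HPC replicate 1 or 2 or HSC replicate 2 or 3, and 7 without HPC replicate 3. It stayed at 4 without HSC replicate 4, which stood apart over all genes. Stard4 had 74.5, 132, 119 and 103 CPM in wt HSC with PBS and 38.5, 44.1 and 66.2 CPM in wt HPC with PBS, with no overlap (log2 difference -1.12 ± 0.24, adjusted p = 0.00139). Fads1 had 104, 99.4, 70.7 and 76.4 CPM against 35.4, 42.5 and 56.8 CPM, again with no overlap (-0.98 ± 0.22, adjusted p = 0.00311). Lss (-1.26 ± 0.37, adjusted p = 0.023) and Fdft1, squalene synthase (-0.95 ± 0.32, adjusted p = 0.0456), were also called. Stard4, Fads1 and Lss are thus 3 of the 8 lower genes of the first experiment and 3 of the 4 of the second. Ebp stood at 0.37 (adjusted p = 0.244), Sqle at -0.89 (adjusted p = 0.105) and Insig1 at -0.11 (adjusted p = 0.896). Insig1 had 42.3, 139 and 132 CPM in the HPC libraries, so its value turned on replicate 1: without it the log2 difference was 0.27. Exon bases of Fdft1 overlap the opposite-strand gene Ctsb over 18.3% of their length, and reads of the pair cannot be told apart if strand was not used.

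From wt HPC to pGM little moved. Of the 29 genes, 1 rose (against 5.59% of all genes) and 1 fell (against 6.36%), and the median was -0.00. Srebf2 fell: it had 116, 111, 148 and 138 CPM in HPC and 83.3, 80.6, 79.98 and 70.2 CPM in pGM, with no overlap (log2 difference -0.68 ± 0.15, adjusted p = 0.000956). Fdps, farnesyl diphosphate synthase, rose from 42.6, 37.4, 40.8 and 37.8 CPM to 58.2, 57.9, 68.6 and 70.0 CPM, again with no overlap (0.71 ± 0.17, adjusted p = 0.00395).

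From wt pGM to GMP the list split by gene. Of the 29 genes, 6 rose (20.7%, against 11% of all genes) and 9 fell (31.0%, against 18%), and the median was -0.20 against -0.11 over all genes. Fdps, Sc5d, Tm7sf2, Ebp, Mvk (mevalonate kinase) and Acat2 rose. Srebf2, Insig1, Stard4, Lpin1, Fads1, Fads2, Fdft1, Sqle and Msmo1 fell. Of these calls, those of Mvk and Acat2 were each lost without the filter and on leaving out any of 6 single libraries (adjusted p up to 0.138 and 0.155). Sqle lost its call without GMP replicate 1 or pGM replicate 1 or 3, and Msmo1 without replicate 2 of either population. Between HSC and HPC, Sc5d had moved the other way.

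Srebf2 (chr15:82147181-82205379 in GRCm38) had 23.3, 23.5, 22.6 and 31.2 CPM in wt GMP, below the 70.2 CPM of the lowest wt pGM library (log2 difference -1.62 ± 0.15, adjusted p = 6.27e-12). Its level thus went from a mean of 131 CPM in wt HSC to 25.1 CPM in wt GMP. Fads2 had 19.7, 20.8, 15.3 and 13.4 CPM in pGM and 2.01, 2.44, 2.88 and 2.63 CPM in GMP, with no overlap (-2.77 ± 0.29, adjusted p = 2.95e-10). Lpin1 had 34.3, 35.3, 23.0 and 29.6 CPM in pGM and 5.62, 16.1, 8.81 and 11.9 CPM in GMP, the GMP libraries all lower (-1.50 ± 0.24, adjusted p = 3.05e-06). Fads1 fell by 0.90 ± 0.17 on the log2 scale (adjusted p = 3.73e-05) and Insig1 by 0.84 ± 0.22 (adjusted p = 0.00229).

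Fdps (chr3:89093588-89101959 in GRCm38) makes farnesyl diphosphate, where the sterol path and protein prenylation part. It had 58.2, 57.9, 68.6 and 70.0 CPM in wt pGM and 153, 146, 173 and 153 CPM in wt GMP. Every GMP library lay above every pGM library (log2 difference 1.32 ± 0.17, adjusted p = 5.16e-08). Fdft1, which takes farnesyl diphosphate into squalene, went down in the same step (-0.60, adjusted p = 0.00992), from 31.9, 38.4, 34.5 and 34.5 CPM to 23.3, 22.5, 23.6 and 20.6 CPM. Tm7sf2 differed by 1.15 ± 0.27 (adjusted p = 0.000754), from 4.51 to 6.86 CPM in pGM and 12 to 14.2 CPM in GMP. Exon bases of Tm7sf2 overlap Vps51 on the same strand over 12.1% of their length.

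Kmt2c genotype was compared within each population. In HSC, 1 of the 29 genes fell in ko, against 1.21% of all 13806 genes tested, and the median of the 29 was 0.24 against 0.01 over all genes, with 10 of 29 below 0 against 48.6% of all genes. Without wt replicate 1 that median was 0.11. Between het and wt HSC the median was 0.17, with 11 of 29 below 0. It moved from -0.12 to 0.25 as single libraries were left out. Between ko and het HSC, which both carry Vav-Cre, the median was 0.06, with 10 of 29 below 0. The gene called between ko and wt HSC was Fads1. It had 109.8, 111, 90.0 and 96.8 CPM in wt HSC, 88.5, 83.6, 86.7 and 87.3 CPM in het HSC and 67.7, 71.7, 74.2 and 61.9 CPM in ko HSC. The 3 genotypes did not overlap and lay in the order wt, het, ko. Fads1 differed by -0.57 ± 0.13 between ko and wt (edgeR adjusted p = 0.027), by -0.24 ± 0.13 between het and wt (adjusted p = 0.807) and by -0.33 ± 0.13 between ko and het (adjusted p = 0.534). The log2 difference stayed between -0.63 and -0.50 under every alternative run, but the call was lost under some. These were a covariate for Y-linked genes (-0.50, adjusted p = 0.112), all populations in 1 fit (-0.56, adjusted p = 0.0791) and a replicate block (-0.57, adjusted p = 0.0601). It was also lost without ko replicate 1 or 4 or without wt replicate 1, 2 or 4 (adjusted p = 0.0551 to 0.0858). Reads of Y-linked genes were near 0 in ko replicates 1 and 4 of every population, so sex differs in part between the genotypes. In PBS-treated HSC of the second experiment Fads1 stood at -0.38 (adjusted p = 0.637), with 86.8, 71.2, 72.3 and 38.4 CPM in ko, a range that overlapped wt.

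In the other populations of the first experiment, no member was called between ko and wt (1.1% of all genes in HPC, 1.94% in pGM and 0.555% in GMP). At an unadjusted p under 0.05 with edgeR there were 2, 2 and 3 of 29 (8.26%, 9.2% and 9.32% of all genes), and DESeq2 and voom called 0 in each. Medians of the 29 were -0.03 in HPC, 0.01 in pGM and -0.12 in GMP, and in GMP -0.08 without ko replicate 2. Between het and wt GMP the median was -0.14. Between ko and het GMP it was 0.01, and 0.10 without ko replicate 2. In HPC, Srebf2 was lower in every ko library but outside the threshold: 116, 111, 148 and 138 CPM in wt against 77.9, 106, 99.8 and 94.0 CPM in ko (log2 difference -0.44 ± 0.15, adjusted p = 0.278). In GMP, Fdps had 153, 146, 173 and 153 CPM in wt, 90.4, 145, 140.0 and 146 CPM in het and 107, 88.1, 120.1 and 114 CPM in ko. The ko libraries lay below all wt libraries, but Fdps did not pass (-0.54 ± 0.17, adjusted p = 0.228; -0.44 without ko replicate 2). Summed pGM and GMP markers were at 97926 to 129651 CPM in ko GMP and 132530 to 165916 CPM in wt GMP. Mature neutrophil markers (33.5 to 173 against 195 to 836 CPM) and macrophage markers (60.3 to 71.3 against 73.6 to 148 CPM) were also lower in ko. So were mitosis genes (1273 to 1793 against 1885 to 2216 CPM). HSC and HPC markers overlapped. Their part in the Fdps values was not tested. In pGM the value of Fdps had the other sign (0.37 ± 0.11, edgeR adjusted p = 0.136), with 68.2, 91.5, 90.8 and 74.5 CPM in ko. With the Y-linked covariate that value was called (0.51, adjusted p = 0.0441).

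The test of whether the ko effect in GMP differs from that in HSC called no member (0.39% of all genes), with 7 of 29 at an unadjusted p under 0.05, all lower (3.3% of all genes). Fdps came closest, at -0.90 ± 0.24 (edgeR adjusted p = 0.0888); DESeq2 gave 0.0259 and voom 0.0455. No member was called for HPC or pGM against HSC (0.232% and 0.218% of all genes), with 0 of 29 at an unadjusted p under 0.05 in each (6.86% and 5.02% of all genes) and 0 by DESeq2 and voom.

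Het libraries were called against neither wt nor ko for any member in any population, where of all genes 0.00724% in HSC, 0.00753% in HPC, 0.0155% in pGM and 0.00828% in GMP were called between het and wt. Between ko and het the shares were 0.326%, 0.196%, 0.564% and 0.0166%. At an unadjusted p under 0.05 with edgeR, 0 to 2 members passed between het and wt (2.78% to 7.35% of all genes) and 0 to 3 between ko and het (4.45% to 8.59%), and DESeq2 and voom called 0. Insig1 in HPC was the furthest: het libraries had 65.4, 88.3, 52.3 and 71.7 CPM, ko libraries 34.6, 43.2, 52.7 and 42.4 CPM and wt libraries 35.7, 35.8, 47.8 and 57.3 CPM. Het lay above most wt and ko libraries with some overlap (het against wt 0.66 ± 0.20, adjusted p = 0.963).

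In the second experiment no member was called between ko and wt in any of the 4 strata, where 0.798% (HSC, PBS), 0% (HSC, IL-1), 0.257% (HPC, PBS) and 0.201% (HPC, IL-1) of all genes were called. At an unadjusted p under 0.05 with edgeR there were 2, 7, 5 and 0 of 29, against 9.05%, 8.54%, 9.04% and 5.21% of all genes. DESeq2 called 0 in each, and voom called 1 in HSC with IL-1, Srebf1. With edgeR its log2 difference there was 0.78, not called. The replicate block called Srebf1 and Fasn, whose log2 difference with edgeR was 0.93. The medians lay above 0 in each stratum, at 0.28, 0.29, 0.24 and 0.13. The PBS medians moved with single libraries: without ko replicate 3 they were 0.07 in HSC and 0.07 in HPC, and without wt replicate 3 the HPC median was 0.48 with 28 of 29 above 0. In that replicate the mean log2(CPM + 1) over the 29 genes was 6.51 in HSC and 6.04 in HPC, the highest of each group. In HSC with IL-1, 5 of 29 genes lay below 0, against 52.5% of all genes. Sqle had 80.6, 63.3 and 37.4 CPM in wt and 128, 120.4, 136 and 61.5 CPM in ko there, overlapping through ko replicate 4 (log2 difference 0.83, adjusted p = 0.498). Without the library labelled wt replicate 1 the median in that stratum was 0.42. Reads of Y-linked genes were present in every wt library of that stratum (7.50, 6.70 and 7.21 on the log2 scale). The ko libraries stood at 7.23, 0.125, 0 and 0.0575. With PBS, Y-linked reads were near 0 in wt HSC replicate 1 and in ko HSC replicates 1, 3 and 4. Sex thus differs in part between these genotypes. Under alternatives other than leaving out libraries, among them the Y-linked covariate, the median with IL-1 was 0.29 to 0.33.

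IL-1 against PBS was compared within population and genotype. In wt HSC no member was called (0.2% of all 16538 genes were), but 9 of 29 had an unadjusted p under 0.05 with edgeR, all lower, against 3.43% of all genes lower at that level. DESeq2 called 1, voom 0. The median of the 29 was -0.45 against 0.03 over all genes, and 27 of 29 lay below 0 against 47.3% of all genes. Leaving out the library labelled wt IL-1 replicate 1 gave a median of -0.59 and leaving out PBS replicate 4 one of -0.56, each with 0 calls. The mean log2(CPM + 1) of the 29 genes was 5.75, 6.22, 6.09 and 5.67 with PBS and 5.58, 5.46 and 5.22 with IL-1, so that every IL-1 library lay below every PBS library. In the same libraries the 5 HSC markers, summed, were at 1739 to 2062 CPM with PBS and 1347 to 1447 CPM with IL-1, and the 6 pGM and GMP markers at 313 to 382 CPM and 537 to 687 CPM, neither overlapping. The 4 erythroid markers were at 12.5 to 45.1 CPM and 43.0 to 56.2 CPM. Their part in the sterol values was not tested.

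Of the 18 enzymes of the sterol path, 17 lay below 0 and 6 had an unadjusted p under 0.05; the other 3 genes at that level were Insig1, Stard4 and Fasn, the fatty acid synthase. Hsd17b7 had 13.4, 36.1, 31.0 and 20.6 CPM with PBS and 11.5, 10.1 and 6.50 CPM with IL-1. The groups did not overlap, but the log2 difference of -1.40 ± 0.35 missed the threshold with edgeR (adjusted p = 0.128); DESeq2 called it (0.00954). Sqle had 98.4, 179.6, 161 and 90.5 CPM with PBS and 80.6, 63.3 and 37.4 CPM with IL-1, also with no overlap (-1.10 ± 0.33, adjusted p = 0.254). Lss had 48.5, 74.5, 69.2 and 37.2 CPM against 37.1, 26.2 and 21.5 CPM, apart by a narrow margin (-0.98, adjusted p = 0.367). Stard4 had 74.5, 132, 119 and 103 CPM against 69, 77.3 and 52.9 CPM, with overlap (-0.66, adjusted p = 0.368). Fads1 and Fads2 lay closer to 0, as the plot of IL-1 responses shows. The share of mitochondrial reads was 0.748% to 4.50% with PBS and 2.11% to 4.90% with IL-1, and summed mitosis genes were at 231 to 682 CPM and 473 to 805 CPM; neither was tested for its part in these values.

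In ko HSC 23 of 29 values lay below 0, against 51% of all genes. No member was called (0.212% of all genes were), and 12 of 29 had an unadjusted p under 0.05 with edgeR, all lower (4.1% of all genes). DESeq2 called 1, voom 0. The median was -0.55 against -0.01 over all genes. It was -0.33 without ko PBS replicate 3, -0.46 without ko PBS replicate 4 and -0.44 without ko IL-1 replicate 4. Summed HSC markers were at 1286 to 2120 CPM with PBS and 1369 to 1663 CPM with IL-1, and pGM and GMP markers at 402 to 610.2 CPM and 476 to 601 CPM, both overlapping. Sc5d had 65.2, 69.7, 112 and 98.8 CPM with PBS and 43.6, 54.5, 63.2 and 46.8 CPM with IL-1. Every IL-1 library lay below every PBS library (log2 difference -0.77 ± 0.21, edgeR adjusted p = 0.196; DESeq2 0.0395). Fdft1 had 82.3, 131, 158 and 239 CPM with PBS and 72, 80.5, 99.95 and 62.1 CPM with IL-1, overlapping at 1 library (-1.01 ± 0.30, adjusted p = 0.27). Stard4 had 91.2, 90.4, 143 and 107 CPM against 55, 76.9, 74.3 and 67.2 CPM, with no overlap (-0.69 ± 0.21, adjusted p = 0.273).

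**Figure D4:**
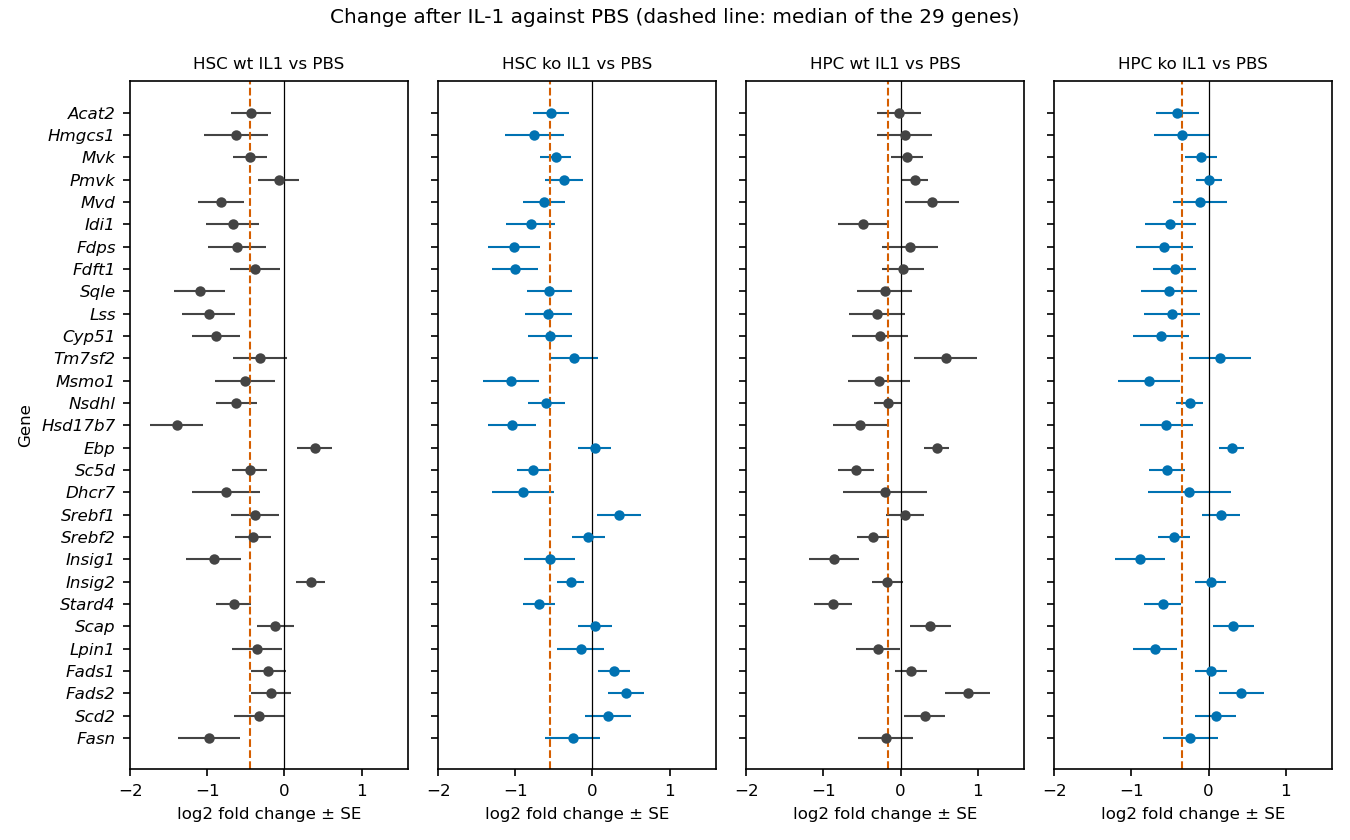
Log2 fold change of each gene after IL-1 against PBS ± SE in the 4 strata (wt grey, ko blue), with the median of the 29 genes as a dashed line. The median lies at -0.45 in wt HSC and -0.55 in ko HSC, and at -0.16 and -0.35 in wt and ko HPC.

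In wt HPC no member was called (0.947% of all genes), with 5 of 29 at an unadjusted p under 0.05 with edgeR (10.1% of all genes), 3 lower and 2 higher. DESeq2 called 1, voom 0. The median was -0.16, -0.07 without IL-1 replicate 1, and it turned to 0.19 without PBS replicate 3. Stard4 had 38.5, 44.1 and 66.2 CPM with PBS and 25.7, 28.9 and 27.8 CPM with IL-1, with no overlap (-0.87 ± 0.24, adjusted p = 0.132; DESeq2 0.0318). Fads2 had 23.3, 16.9 and 30.3 CPM with PBS and 57.2, 42.3 and 31.5 CPM with IL-1, every IL-1 library higher (0.87 ± 0.29, adjusted p = 0.263). Ebp had 111, 75.4 and 90.2 CPM against 137, 120.0 and 132 CPM, also with no overlap (0.47 ± 0.16, adjusted p = 0.29). Insig1 missed the threshold (-0.87 ± 0.33, adjusted p = 0.343) and was called without PBS replicate 1, which at 42.3 CPM lay far below the other PBS libraries. In the same wt libraries, summed HSC markers were at 518 to 811 CPM with PBS and 265 to 341 CPM with IL-1. B cell markers were also lower, at 43.9 to 176 CPM and 10.2 to 28.6 CPM. T cell markers were higher, at 12.1 to 17.9 CPM and 23.2 to 24.6 CPM. In ko HPC no member was called (0.433% of all genes), with 5 of 29 at an unadjusted p under 0.05 with edgeR (6.86% of all genes) and 0 by DESeq2 and voom. The median was -0.35, -0.46 without IL-1 replicate 1 and -0.04 without PBS replicate 3. Insig1 had 91.8, 107 and 122 CPM with PBS and 61.2, 62.4 and 51.0 CPM with IL-1, with no overlap (-0.89 ± 0.33, edgeR adjusted p = 0.505). Summed HSC markers were at 482 to 574 CPM with PBS and 255 to 330 CPM with IL-1 in ko HPC. Mature neutrophil markers were higher with IL-1, at 3.93 to 7.26 CPM and 8.33 to 15.6 CPM. The part of these markers in the HPC values was not tested.

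Responses to IL-1 were compared directly. Between ko and wt, no member was called in HSC or in HPC (0% of all genes in each), with 1 and 0 of 29 at an unadjusted p under 0.05 with edgeR (4.57% and 2.21% of all genes) and 0 by DESeq2 and voom. The median differences were 0.08 and -0.17, and leaving out single libraries moved them from -0.06 to 0.28 and from -0.40 to -0.05. Between HPC and HSC, no member was called in wt (0.0228% of all genes) or in ko (0% of all genes), with 2 and 0 of 29 at that level (5.77% and 5.07% of all genes) and 0 by DESeq2 and voom. The medians were 0.49 and 0.26, with 3 and 8 of 29 below 0, against 52.2% and 52.7% of all genes. Leaving out single libraries moved the wt median from 0.36 to 0.79 and the ko median from 0.05 to 0.36. Without ko HSC PBS replicate 3 the ko median was 0.07, with 16 of 29 above 0. The largest single difference in wt was that of Mvd, mevalonate diphosphate decarboxylase, at 1.25 ± 0.48 (adjusted p = 0.767).

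Dhcr7, the reductase of the last step to cholesterol (chr7:143823145-143848410 in GRCm38), varied between libraries in a way the groups do not carry. In ko it had 107, 58.3, 103 and 48.5 CPM in HSC, 109, 42.0, 78.8 and 31.6 CPM in HPC, 101, 47.7, 121 and 33.0 CPM in pGM and 84.1, 26.3, 110.2 and 22.9 CPM in GMP, for replicates 1 to 4. Replicates 1 and 3 were thus high and 2 and 4 low in all 4 populations. In wt, replicate 2 was highest in each population, with 107 CPM in HSC, 109.9 CPM in HPC, 74.0 CPM in pGM and 79.3 CPM in GMP. In het HPC, replicate 3 had 119 CPM against 46.2 to 49.9 CPM in the others. Deviations from the group means correlated between populations at a mean Pearson r of 0.859 over 6 population pairs and 12 labels of genotype and number. These points share a replicate number and possibly an animal. The median r of all 15110 genes tested was 0.0567, and 0.142% of them reached the value of Dhcr7. Hsd17b7 (0.564) and Hmgcs1 (0.491) came next among the 29, and Tm7sf2 was lowest at -0.217. The labels do not say what a shared number marks. In ko, Y-linked reads were near 0 in numbers 1 and 4 and present in 2 and 3 in all 4 populations. In wt, numbers 2 and 3 carried both Y-linked reads and Xist, an RNA of female cells, in all 4. Wt number 1 had Xist at 0.277 to 1.63 CPM. Wt number 4 varied, at 68.9 CPM in HSC and 0.309 to 0.588 CPM elsewhere. Some numbers may thus share animals. Population steps were fitted without pairing by number.

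**Figure D5:**
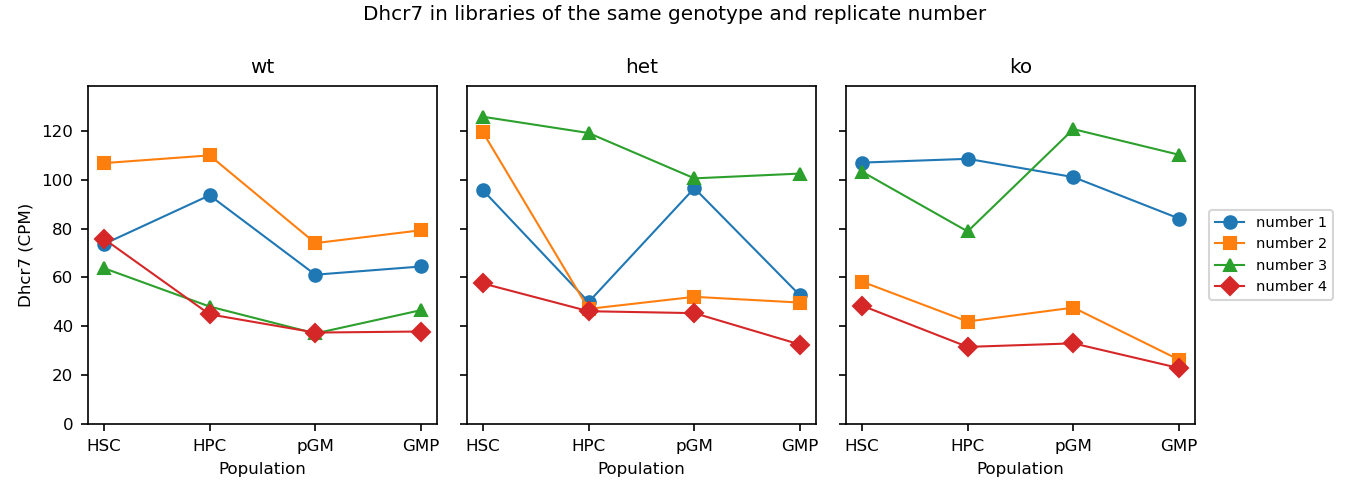
Dhcr7 CPM in the first experiment by population; each line joins the libraries of 1 genotype with the same replicate number. In ko, numbers 1 and 3 stay above 78 CPM and numbers 2 and 4 below 59 CPM in each population.

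The tables of the experiments were normalised separately, so levels across them are set side by side only. Mean levels in wt HSC with PBS were 0.648 (Ebp) to 2.42 (Fdps) times those in untreated wt HSC for 28 of the genes. Idi1 stood apart, with a mean of 2.70 CPM in untreated and 43.0 CPM in PBS-treated wt HSC, a ratio of 15.9. Fdps had means of 43.6 and 106 CPM. Whether this comes from the mice, the library or the counting was not tested.

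Other lipid genes were counted from separate lists in the same fits. Of all genes, 12.5% rose and 10.2% fell between wt HSC and HPC, and 6.46% and 7.36% with PBS. Of 12 fatty acid genes, 11 were tested between wt HSC and HPC: Elovl5, a fatty acid elongase, rose (log2 difference 0.92 ± 0.18, adjusted p = 0.000177) and Acss2, which makes acetyl-CoA from acetate, fell (-1.02 ± 0.29, adjusted p = 0.00751). In the PBS libraries the same pair was called, at 0.89 and -0.89, but the list held 1 call without HPC replicate 1 or HSC replicate 1 or 2 and 0 without HPC replicate 2. From pGM to GMP, where 11% of all genes rose and 18% fell, 3 fatty acid genes rose and 4 fell. Of 10 genes of the isoprenoid and dolichol branch, 1 rose between wt HSC and HPC of the first experiment, Dhdds (0.41), and 3 rose from pGM to GMP. Osbpl5, a sterol-binding protein, rose from HSC to HPC in both experiments (1.08 and 1.03), and in the second its list had 0 calls under the replicate block and without any of 5 single libraries. Among 10 genes of SREBP processing, 0 were called between wt HSC and HPC. From pGM to GMP, 2 rose and 1 fell: Sec24d, of the coat that carries cargo out of the endoplasmic reticulum (1.63), and Erlin1 (0.51) rose, and Rnf145 (-0.85) fell. Of 10 sterol efflux and storage genes, 2 rose and 5 fell in that step, with Soat1, which esterifies cholesterol, at 1.92 and the exporter Abcg1 at -1.81. Acss2 stood at -2.49 there. Between ko and wt, Cyp27a1, a sterol hydroxylase, rose in HPC (1.46 ± 0.26, adjusted p = 0.00596) and pGM (1.38 ± 0.32, adjusted p = 0.0318), where 1.1% and 1.94% of all genes were called. With the Y-linked covariate its list had 0 calls in both, and in pGM also on leaving out any ko library or wt replicate 2 or 4. With IL-1, Sec24d rose in wt HPC (1.79 ± 0.27, adjusted p = 0.00412) and ko HPC (1.45 ± 0.27, adjusted p = 0.0257). In ko HPC the call was lost without IL-1 replicate 3 or any PBS library.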

How the data were processed

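The authors deposited 1 table of raw counts per gene for each experiment. The submitters' processing notes name STAR 3.0.4, featureCounts 1.4.5 and Subread; the genome build and strand setting: not given in the sources used here. Per the labels' protocols, RNA was purified with a Qiagen RNeasy kit and amplified with a Clontech SMARTer-type kit. The 3 rows of the first table that are no mouse gene (9.57e-05% of reads) were left out.

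Counts were tested with the quasi-likelihood test of edgeR 4.0.16 (R 4.3.3), robust, TMM scaling, genes kept by filterByExpr (minimum count 10, total 15), Benjamini-Hochberg adjustment over all genes kept; called means adjusted p under 0.05. Genotype and IL-1 were fitted within a population. Population steps and differences of effects used all libraries of the experiment. There were 31 comparisons from 8 fits. CPM uses TMM over an experiment, and group means of the list use a pseudocount of 1. SE is the log2 fold change divided by the root of F.

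The genes and comparison lists were chosen with earlier results of these data known. The rule names every called gene, with libraries for the 4 smallest p, and uncalled genes between called steps or among Srebf1, Srebf2, Insig1, Insig2 and Scap. Other uncalled genes, Dhcr7, Idi1 and the promoters other than Hmgcs1 were chosen after their values were seen. Positions are from GENCODE M21 (GRCm38). Alternatives were DESeq2 1.42.0, voom with sample weights (limma 3.58.1), RLE scaling, no filter, a replicate block, a Y-linked covariate, 1 fit over all libraries, a pseudocount of 0.1, and each library left out.

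The fits were tested on simulated data first. Changes were set in 100 genes at each size, drawn from all genes kept, and the other genes were left unchanged. Of genes changed 2-fold, 42% were called between wt HSC and HPC and 40% between ko and wt HSC. For IL-1 against PBS, 20% were called in wt HSC and 24% in wt HPC. Of genes changed 4-fold, these shares were 79%, 81%, 64% and 69%. In the real libraries 12.5% of genes rose and 10.2% fell between wt HSC and HPC. The simulated shares therefore do not carry over to that step. Same-numbered libraries deviated together (every r over 0.1) only in HPC with IL-1, ko against wt (r 0.158 to 0.370), and the replicate block changed no call there.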

Additional observations from a re-analysis of the deposited data

Results flagged for a closer look

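Of 71 groups of 4 libraries in which a named gene was checked, 2 held a library far from the other three; chance alone marks about 1 in 20 groups. Stard4 had 49.8 CPM in pGM wt replicate 2 against 44.6 to 45.3 CPM in the others. Srebf2 had 31.2 CPM in GMP wt replicate 4 against 22.6 to 23.5 CPM in the others, and remained below every pGM library.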

How the results depend on the processing

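Of the population steps, the count of called members ranged over all alternatives from 8 to 12 between wt HSC and HPC (9 as reported) and from 12 to 17 between wt pGM and GMP (15 as reported); from wt HPC to pGM it was 2 and became 4 with voom. Between wt HSC and HPC with PBS it was 4, with 2 without the filter, 8 with the replicate block and 2 to 7 as single libraries were left out. In HSC ko against wt it was 1, and 0 with the replicate block, the Y-linked covariate or all libraries in 1 fit, and 0 to 1 on leaving out libraries. In pGM ko against wt it was 1 with the Y-linked covariate. For the ko effect in GMP minus HSC it was 1 with DESeq2 and 1 with voom, and 0 to 1 on leaving out libraries. For IL-1 against PBS it was 1 in wt HSC with DESeq2, 1 without the filter and 1 with the replicate block, 1 in ko HSC with DESeq2, and 1 in wt HPC with DESeq2, 1 with the replicate block and 0 to 1 on leaving out libraries. In HSC with IL-1, ko against wt, it was 1 with voom and 2 with the replicate block. The block changed the count in no other comparison by more than 1.5 times. In no comparison outside HPC with IL-1 did every same-numbered pair reach an r over 0.1 (r -0.306 to 0.390). The labels name no pairs. The group mean of GMP het was 4.90 with a pseudocount of 0.1 against 4.98. Insig1 between wt HSC and HPC with PBS ranged from -0.38 to 0.27 on leaving out libraries, and turned positive without HPC replicate 1 (0.27) or HSC replicate 2 (0.25). Of 752 alternative values of 56 named gene results, 695 kept direction and side of the threshold, 38 lost a call, 17 gained one and 2 changed sign. The cause of these changes was not tested. RLE scaling moved the median of all genes by at most 0.05. With 3 or 4 libraries per group, changes smaller than the spread between libraries could not be called.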
